A study of Rattus norvegicus with 15 samples.

Results

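A set of 10 genes of the blood-brain barrier endothelium was examined in rat brain after vagus nerve stimulation (VNS), the electrical activation of the cranial nerve that links the viscera with the brainstem. The 10 genes were Cldn5, Ocln, Slc2a1, Slc16a1, Slco1a4, Slco1c1, Abcb1a, Pecam1, Flt1 and Tek, chosen by gene symbol. They matched 11 of the 18278 RefSeq transcript records that had been counted (10 of 16397 symbols), since Flt1 has 2 records. Rats of the VNS groups were stimulated for 30 min on 4 consecutive days by an implanted device, and rats of the control groups carried a sham device. For the hippocampus there were 4 VNS and 3 control libraries, all from rats that on days 2 to 4 had also been tested for 10 min for their preference for novelty. For the cortex there were 4 VNS and 4 control libraries, and the labels give no behavioural test. Strain, age and sex are not given in the labels. Tissue was taken directly after the last session. Each hippocampal member record passed the filter on low counts, and in the cortex 1 did.

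Endothelial cells of brain capillaries are sealed to each other by tight junctions, so that nutrients, hormones and drugs cross mainly through carriers and pumps in the cell membrane. Cldn5 and Ocln encode transmembrane proteins of the tight junction. Slc2a1 encodes the glucose transporter of the barrier, Slc16a1 a carrier of lactate and ketone bodies, Slco1a4 and Slco1c1 organic anion transporters of which the second carries thyroid hormone, and Abcb1a the drug efflux pump P-glycoprotein. Pecam1 is an adhesion molecule of endothelial junctions, Flt1 a receptor for vascular endothelial growth factors and Tek the receptor for angiopoietins. Several of these genes are not private to endothelium: Slc16a1 is also made by oligodendrocytes, and Slc2a1 and Slco1c1 also by glia.

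The promoters of 7 of the 10 genes were in the RefSeq table used here (assembly GRCr8). Printed here are 3, those of the genes with a record whose hippocampal values did not overlap between groups, from 250 bases before to 50 bases after the annotated start. Capitals mark 3 motifs on either strand: GGAAG, the core bound by ETS factors of endothelium, GGGCGG, the GC box, and TATAAA, the TATA box.
Slc16a1: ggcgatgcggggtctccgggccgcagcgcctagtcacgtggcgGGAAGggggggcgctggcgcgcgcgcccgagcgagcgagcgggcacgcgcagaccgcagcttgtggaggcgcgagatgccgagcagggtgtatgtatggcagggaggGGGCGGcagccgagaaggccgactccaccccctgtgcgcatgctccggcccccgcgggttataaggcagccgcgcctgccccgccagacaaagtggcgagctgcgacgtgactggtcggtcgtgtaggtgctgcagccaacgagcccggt
Ocln: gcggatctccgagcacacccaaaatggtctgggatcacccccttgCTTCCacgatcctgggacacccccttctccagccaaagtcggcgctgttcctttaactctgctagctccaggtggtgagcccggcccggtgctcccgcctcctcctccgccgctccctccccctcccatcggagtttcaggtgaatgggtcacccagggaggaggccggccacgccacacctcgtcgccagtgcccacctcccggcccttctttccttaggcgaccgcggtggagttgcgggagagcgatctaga
Flt1: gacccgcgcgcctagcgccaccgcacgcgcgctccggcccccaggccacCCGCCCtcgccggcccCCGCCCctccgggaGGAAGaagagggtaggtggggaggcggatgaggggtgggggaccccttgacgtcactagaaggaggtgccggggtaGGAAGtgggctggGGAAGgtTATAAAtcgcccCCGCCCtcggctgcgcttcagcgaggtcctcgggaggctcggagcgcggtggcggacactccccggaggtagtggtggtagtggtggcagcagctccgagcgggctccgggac
These lie at chr2:194812410-194812709 (plus strand), chr2:33441149-33441448 (minus strand) and chr12:12333180-12333479 (plus strand). The Slc16a1 promoter held 1 GGAAG and 1 GC box, the Ocln promoter 1 GGAAG, and the Flt1 promoter 3 of each of these and 1 TATA box. Over the 7 members, GGAAG was present in 5, the GC box in 5 and the TATA box in 2. Among all 33469 promoters of the table, 70.1% held GGAAG, 33.1% the GC box and 14.2% the TATA box. A match describes the letters of this window only.

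Hippocampal libraries held 16728486 to 51463555 counts, of which 10635 to 31758 fell in the 11 member records, except in VNS library 3. In that library ribosomal RNA records took 73.1% of the counts and the members had 1814. Single members had 38 to 581 counts in VNS library 3 and 175 to 8842 in the other 6. Control libraries 1 and 2 stood apart from the other 5 in genes of forebrain excitatory neurons, the principal neurons of the hippocampus. The 7 markers of that list summed to 249.1 and 11.5 CPM there (CPM is the count scaled to a common library size by TMM), against 1558 in control library 3 and 1403 to 2243 after VNS. Neurod6, a transcription factor gene of such neurons, reached 0.65, 1.05 and 81.4 CPM in control libraries 1 to 3 and 58.9 CPM or more after VNS. Thalamic neuron markers summed to 1531, 536.1 and 85.0 CPM in control libraries 1 to 3, and VNS libraries held 40.4 to 201.5 CPM. Slc17a6, the glutamate transporter gene of thalamic neurons, stood at 379.7, 347.4 and 36.9 CPM in those controls, whereas the thalamic kinase gene Prkcd stood at 794, 11.8 and 10.2 CPM. Results are therefore given with and without those libraries. Hippocampal counts carry no strand, and no member record overlaps a record of the opposite strand. The labels do not say that libraries came from separate litters or days, so p-values measure the spread between these libraries.

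Per kilobase of record, so that genes can be compared, the glucose transporter gene Slc2a1 was the highest of the members in the hippocampus, at 55.0 ± 10.2 CPM per kb (SD, n = 7). Cldn5 followed at 33.2 ± 8.74, Slco1c1 at 22.5 ± 1.15, Slc16a1 at 20.6 ± 9.37, Slco1a4 at 12.1 ± 2.65 and Abcb1a at 7.55 ± 1.55. Over exons that its 2 records do not share, full-length Flt1 stood at 9.13 ± 2.08 CPM per kb, Pecam1 at 5.59 ± 1.34, Tek at 4.47 ± 0.65 and Ocln at 2.32 ± 0.47. Library ranges separated Slc2a1 from Cldn5 and Tek from Ocln, while all neighbours between Cldn5 and Tek in this order overlapped. Ocln was the lowest of the members.

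In the hippocampus each of the 11 member records had a lower fitted level after VNS than in controls, and none passed the test. The median log2 fold change over the members was -0.32, against -0.0068 over all 12728 records tested, of which 50.8% had a value below 0. It was -0.18 without control library 1, -0.21 without VNS library 3 and -0.037 without control libraries 1 and 2. After Benjamini-Hochberg adjustment over all records, 0 members passed with edgeR's quasi-likelihood test, and 0 of 12728 records did (0%). DESeq2 called 0 members and 0.135% of all records, and limma-voom called 0 members and 0% of all records. Slc16a1, Ocln and the short record of Flt1 had an unadjusted p under 0.05 (3 of 11, or 27.3%, against 7.28% of all records at that p and lower after VNS). For the same 3 records every VNS library lay below every control library (27.3%, against 4.61% of all records). With counts summed per symbol, 2 of 10 members had an unadjusted p under 0.05 and were lower, against 7.26% of all tested. Flt1 was not among them (edgeR unadjusted p = 0.083). In bulk tissue, fewer endothelial cells and less RNA per cell cannot be told apart. Control library 1 or 2, both low in forebrain neuron markers, held the highest value for 9 of the 11 records. The share of all records for which this held was not computed. The part of the tissue content of those libraries in the member differences was not tested.

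**Figure D1:**
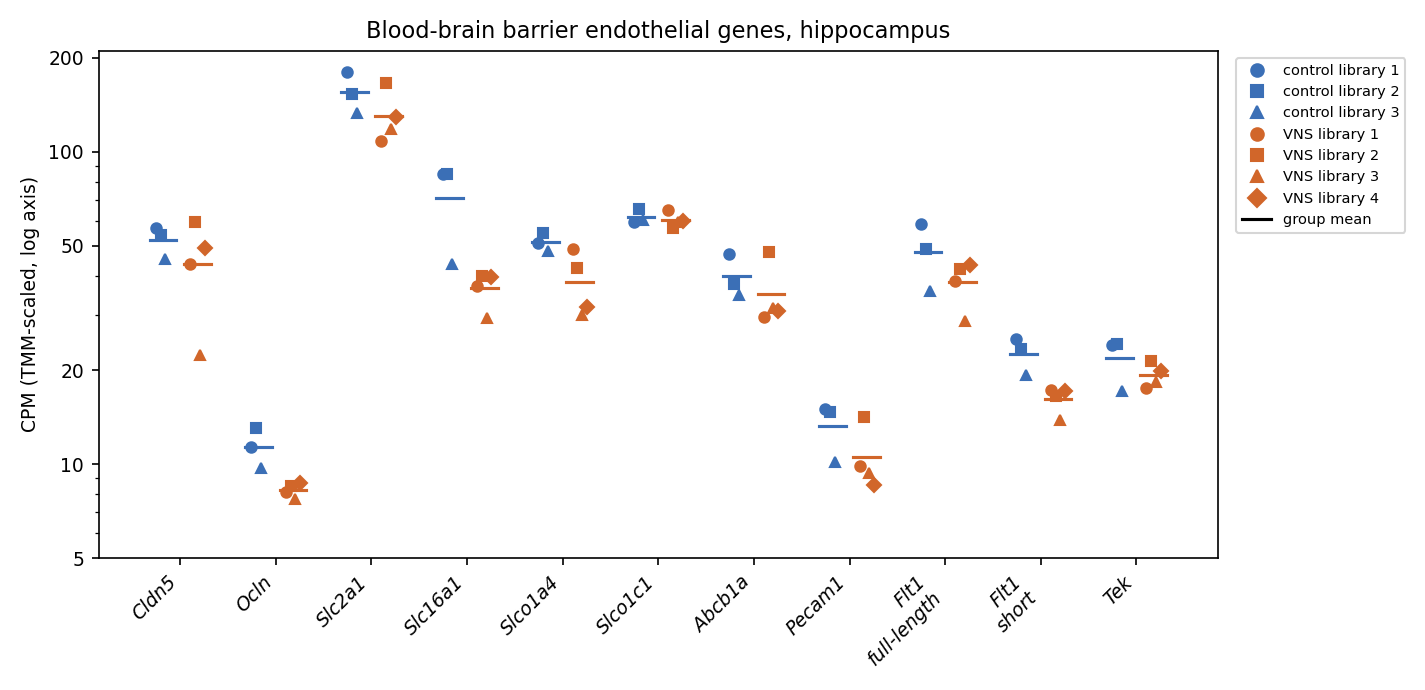
Expression of the 11 member records in each hippocampal library, in TMM-scaled CPM on a log axis, with controls in blue, VNS in orange, a symbol per library and a bar at the group mean. Slc16a1 has its 2 highest values, 85.0 and 85.1 CPM, in control libraries 1 and 2, and 43.8 CPM or less elsewhere, whereas Slco1c1 stays between 57.0 and 65.7 CPM.

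Among the transporters, Slc16a1 had the largest difference. It stood at 85.0, 85.1 and 43.8 CPM in control libraries 1 to 3 and at 37.3, 40.1, 29.3 and 39.6 CPM in VNS libraries 1 to 4. The groups did not overlap, but control library 3 lay nearer to the VNS libraries than to the other 2 controls. The control mean was 71.3 ± 23.8 CPM (SD, n = 3) and the VNS mean 36.6 ± 5.01 CPM (SD, n = 4). The log2 fold change was -0.96 (SE 0.24, unadjusted p = 0.0040, edgeR adjusted p = 0.40), which placed Slc16a1 at rank 26 of 12728 by p. Over 16 alternative settings it ran from -1.21 to -0.26 and passed in 1. The record, NM_012716, has 5 exons on chromosome 2 from 226529294 to 226549303 in rn5.

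Oligodendrocyte markers had lower values after VNS in 12 of 12 tested records (median log2 fold change -0.73), and Slc16a1 is expressed in those cells too. Their summed level was 8405, 6926 and 4723 CPM in control libraries 1 to 3 and 2787, 3984, 2252 and 5415 CPM in VNS libraries 1 to 4. Control libraries 1 and 2 were the highest for these markers as for Slc16a1. VNS library 4, however, exceeded control library 3 in the markers and not in Slc16a1. Mbp, a myelin gene, had 1 of 6 records tested, with 28.1, 12.6 and 16.1 CPM in control libraries 1 to 3 and a VNS range of 12.0 to 15.6 CPM. The part of oligodendrocyte RNA in the Slc16a1 difference was not tested.

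Slco1c1, the thyroid hormone carrier, differed least. Its values were 59.8, 65.7 and 60.6 CPM in controls and 65.0, 57.0, 59.6 and 60.3 CPM after VNS. The highest library was 1.15 times the lowest, against 2.91 times for Slc16a1. The log2 fold change was -0.037 (SE 0.11, adjusted p = 0.90). VNS library 3, with 293 counts of this record, lay within the range of the others.

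The other organic anion transporter gene, Slco1a4, was at 51.3, 54.8 and 48.2 CPM in controls and at 48.8, 42.6, 30.1 and 31.9 CPM after VNS. Only VNS library 1 reached into the control range. Its log2 fold change was -0.42 (SE 0.19, unadjusted p = 0.054, adjusted p = 0.40). Slco1a4 has close paralogs in the same gene cluster, so reads could be split between them. Slc2a1 was at 180.1, 153.5 and 133.1 CPM in controls and at 108.4, 166.4, 118.1 and 129.3 CPM after VNS. The groups overlapped, with VNS library 2 above 2 of the controls, and the log2 fold change was -0.25 (SE 0.18, adjusted p = 0.53). Abcb1a was at 47.1, 37.9 and 34.8 CPM in controls and at 29.6, 47.9, 31.5 and 30.9 CPM after VNS. VNS library 2 held the highest Abcb1a value of all 7 libraries, and the log2 fold change was -0.19 (SE 0.20, adjusted p = 0.67).

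The 2 tight junction genes had different spreads. Ocln was at 11.4, 13.0 and 9.71 CPM in controls and at 8.13, 8.50, 7.73 and 8.67 CPM after VNS. All VNS libraries were below all controls, with means of 11.4 ± 1.67 CPM (SD, n = 3) and 8.26 ± 0.42 CPM (SD, n = 4). The log2 fold change was -0.46 (SE 0.16, unadjusted p = 0.018, adjusted p = 0.40). The value of VNS library 3 rests on 38 counts, whose exact Poisson 95% interval is 5.47 to 10.6 CPM and covers counting error only. The header shows no paired option, so both mates of a pair may be among these counts, which makes the interval too narrow. The upper bound exceeds control library 3, so this library alone does not separate from that control at its depth. The Ocln record, NM_031329, has 11 exons on chromosome 2 from 49686708 to 49736838 in rn5.

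Cldn5, the main claudin of brain endothelium, was at 56.9, 54.3 and 45.5 CPM in controls and at 43.7, 59.5, 22.4 and 49.4 CPM after VNS. The groups overlapped, VNS library 2 was the highest of all 7 and VNS library 3 the lowest. The log2 fold change was -0.25 (SE 0.29, adjusted p = 0.69), and it was -0.039 (SE 0.16, adjusted p = 0.93) without VNS library 3. Cldn5 is a single-exon record, NM_031701, on chromosome 11 from 89458258 to 89459684 in rn5.

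Of the adhesion and receptor genes, Pecam1 was at 15.01, 14.7 and 10.2 CPM in controls and at 9.88, 14.2, 9.35 and 8.60 CPM after VNS (log2 fold change -0.34, SE 0.23, adjusted p = 0.50). Tek was at 24.1, 24.2 and 17.2 CPM in controls and at 17.5, 21.4, 18.3 and 19.8 CPM after VNS (log2 fold change -0.18, SE 0.16, adjusted p = 0.61). For Tek, control library 3 was the lowest of all 7 libraries. Both genes were highest in control libraries 1 and 2, and for both the groups overlapped.

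Flt1 was counted in 2 records that share 2204 exonic bases, and reads in the shared part were assigned to neither. The full-length record, NM_019306, has 30 exons on chromosome 12 from 11155072 to 11325040 in rn5, with 4644 bases of its own. The short record, NM_001309381, has 13 exons and 3950 bases of its own, from 11244503 to 11248452, in the run-on of its last exon. A soluble form of this receptor, which binds growth factor without signalling, is known to arise by such a run-on. The full-length record was at 58.9, 48.8 and 35.9 CPM in controls and at 38.7, 42.3, 28.7 and 43.5 CPM after VNS (log2 fold change -0.32, SE 0.21, adjusted p = 0.49). Its groups overlapped. The short record was at 25.2, 23.3 and 19.3 CPM in controls and at 17.3, 16.5, 13.8 and 17.2 CPM after VNS. Here all VNS libraries lay below all controls (log2 fold change -0.47, SE 0.15, unadjusted p = 0.013, adjusted p = 0.40).

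Per kilobase of unshared exon, the short record reached 0.50, 0.56 and 0.63 of the full-length record in control libraries 1 to 3. In VNS libraries 1 to 4 the ratio was 0.53, 0.46, 0.57 and 0.46. The mean ratio was 0.56 ± 0.064 (SD, n = 3) in controls and 0.50 ± 0.052 (SD, n = 4) after VNS. The difference of -0.061 was within the spread of the libraries (two-sided exact permutation test, p = 0.23, smallest possible p 0.029). Hippocampal libraries were made from total RNA after ribosomal depletion, and the run-on lies inside the transcribed full-length gene. Reads from unspliced full-length RNA and from the short transcript therefore cannot be told apart.

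**Figure D2:**
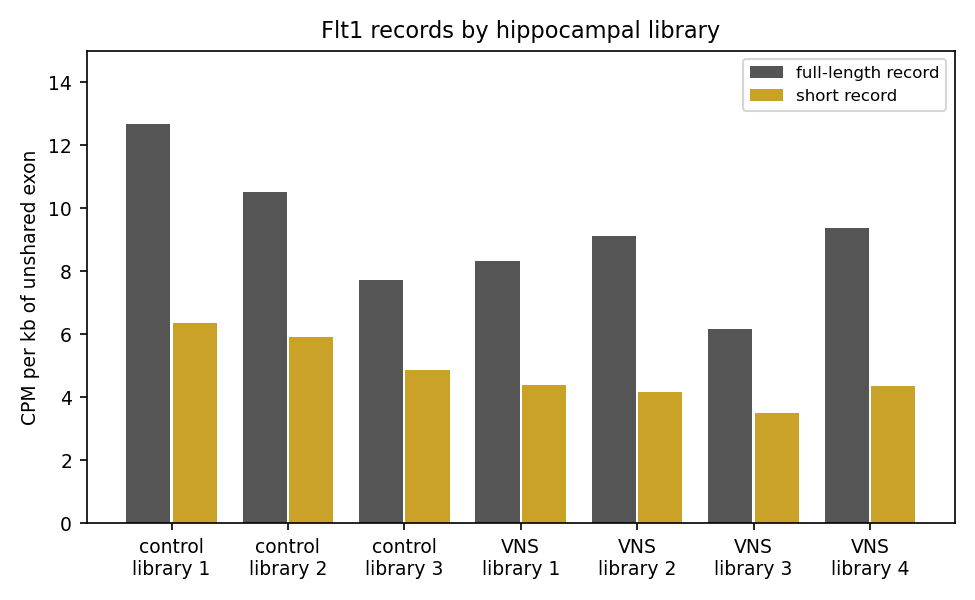
Level of the 2 Flt1 records in each hippocampal library, in TMM-scaled CPM per kilobase of exon not shared by the records (bars start at 0). The short record reaches 3.50 to 6.37 and the full-length record 6.17 to 12.7 in the 7 libraries.

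The member differences depended on which controls were used. With 1 library left out, all members at an unadjusted p under 0.05 were lower after VNS. There were 2 of 11 without control library 1 (3.18% of all records) or control library 2 (3.62%), and 4 without control library 3 (12.9%) or VNS library 1 (3.8%). There were 5 without VNS library 2 (7.04%), and 3 without VNS library 3 (4.54%) or VNS library 4 (5.31%). Control library 1 or 2 was the highest of the 7 libraries for 9 of the 11 records, and control library 3 for none. Control library 3 lay within the range of the VNS libraries for 7 of 11 records. The shares of all records with these patterns were not computed, so whether the counts are particular to the members is unknown. Without control library 3, Slc16a1 passed (log2 fold change -1.21, SE 0.16, edgeR adjusted p = 0.0036), 1 of 11 members against 4.41% of all records called lower in that fit. The other 10 did not pass, and the median over the members was -0.46.

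Without control libraries 1 and 2, a fit in which the lone control is assumed to vary like the VNS libraries, the members had a median log2 fold change of -0.037. In that fit 7 of 11 values were below 0, against 48.6% of all records, and 0 members had an unadjusted p under 0.05, against 0.801% of all records. Slc16a1 was at -0.26 (SE 0.22), Ocln at -0.24 (SE 0.27), the short Flt1 record at -0.25 (SE 0.23) and Slco1a4 at -0.33 (SE 0.27). Tek (0.16), full-length Flt1 (0.094), Pecam1 (0.044) and Abcb1a (0.00057) had values above 0. The adjusted p was 1 for each of the 11 records.

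**Figure D3:**
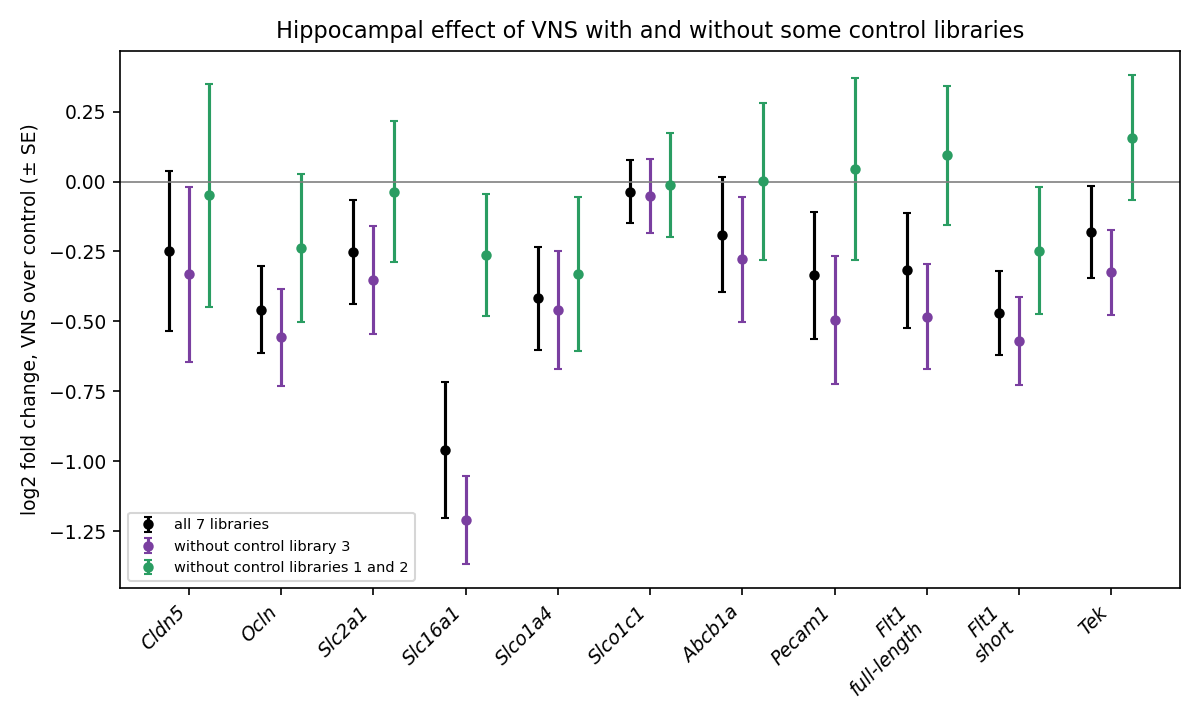
Log2 fold change of VNS over control in the hippocampus for each member record, with its standard error, from all 7 libraries (black), without control library 3 (purple) and without control libraries 1 and 2 (green). The Slc16a1 value runs from -1.21 to -0.26 between these fits, and Slco1c1 stays between -0.052 and -0.013.

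Other genes of the barrier were taken from lists of junction, transporter and endothelial genes. Of 50 such records tested in the hippocampus, 0 passed, 30 had values below 0 (60.0%, against 50.8% of all records) and 20 above, and the median log2 fold change was -0.092. An unadjusted p under 0.05 was reached by 4 lower records (8.0%, against 7.28% of all records) and 1 higher (against 4.79% of all records). Lower among the junction genes was Cldn12, a claudin of wider expression, with a control mean of 52.8 ± 11.4 CPM (SD, n = 3), a VNS mean of 35.6 ± 3.19 CPM (SD, n = 4) and a log2 fold change of -0.57 (SE 0.17). The most abundant junction genes per kilobase were the scaffold gene Tjp1 (0.10, SE 0.15) and the adhesion molecule gene Jam2 (-0.31, SE 0.14). The adjusted p was 0.40 for Cldn12, 0.75 for Tjp1 and 0.40 for Jam2.

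Among the other transporters, Abcb1b, the paralog of Abcb1a, had the smallest p. It was at 3.87, 2.83 and 10.9 CPM in controls and at 13.9, 13.7, 14.03 and 12.6 CPM after VNS (log2 fold change 1.21, SE 0.43, unadjusted p = 0.023, adjusted p = 0.40). All VNS libraries exceeded all controls, which held for 4.67% of all records tested. Control library 3 lay near the VNS libraries. Abcb1a and Abcb1b are similar in sequence, so reads could be split between them. For the iron exporter gene Slc40a1 the log2 fold change was -1.22 (SE 0.56, adjusted p = 0.40). The carriers highest per kilobase, the transferrin receptor gene Tfrc (0.067, SE 0.24) and the amino acid transporter gene Slc7a5 (0.031, SE 0.13), had adjusted p of 0.92 and 0.93.

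Among other endothelial genes, Plvap, which encodes the diaphragm protein of leaky, fenestrated capillaries, had the smallest p. It was at 13.5, 6.96 and 1.20 CPM in controls and at 0.27, 2.19, 0.41 and 1.64 CPM after VNS (log2 fold change -2.62, SE 0.89, adjusted p = 0.40). Control libraries 1 and 2 were far above the other 5. For Tie1, a receptor related to Tek, it was -0.52 (SE 0.23, adjusted p = 0.40). The most abundant genes of this list per kilobase, Pltp (-0.26, SE 0.17) and Tspan12, a co-receptor in Wnt signalling at the barrier (-0.028, SE 0.16), did not pass either.

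Ligands and partners of the receptors were examined as a list of 18 genes, of which 16 had records and 15 were tested. None passed, and 8 had values below 0 and 7 above (median -0.10). Vegfa, the main ligand family member for Flt1, has 14 records that share their exons and held at most 1 count per library in all, so no level can be given. Of the angiopoietins that bind Tek, Angpt1 had 1.89, 2.75 and 3.85 CPM in controls, and its VNS libraries ranged from 3.42 to 7.73 CPM (log2 fold change 0.74, SE 0.37, adjusted p = 0.41). The smallest p belonged to Lef1, a transcription factor of Wnt signalling (-2.08, SE 0.73). Control libraries 1 and 2 held 27.3 and 14.04 CPM of it and the remaining 5 held 1.65 to 5.29 CPM. Nrp1, a co-receptor for growth factors of the Vegf family, had the next smallest p (1.31, SE 0.52), with 15.9 and 31.6 CPM in control libraries 1 and 2 and a range of 86.7 to 151.8 CPM over the remaining 5. Ctnnb1, which encodes beta-catenin and was the most abundant of the list per kilobase, stood at -0.17 (SE 0.16). Lef1 and Nrp1 separated control libraries 1 and 2 from the remaining 5, and Ctnnb1 did not.

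Markers of the other cells of the vessel wall lay on both sides of 0. Of 10 pericyte records 5 had values below 0 and 5 above (median 0.0017), with summed levels of 141.9 to 173.4 CPM in controls and 137.3 to 184.2 CPM after VNS. The log2 fold change was 0.065 (SE 0.23) for Pdgfrb, the pericyte growth factor receptor gene, and 0.045 (SE 0.21) for Rgs5. The smallest p of this list belonged to Ndufa4l2 (-0.71, SE 0.38) and Abcc9 (-0.37, SE 0.27), while the proteoglycan gene Cspg4 had -0.016 (SE 0.17). Of 6 smooth muscle records 1 was below 0 and 5 above (median 0.32), with sums of 26.8 to 41.4 and 31.3 to 49.8 CPM. It was 0.040 (SE 0.21) for the smooth muscle actin gene Acta2 and 0.27 (SE 0.33) for the myosin gene Myh11, and Tagln (0.46, SE 0.28), Des (0.58, SE 0.36) and Myl9 (0.36, SE 0.33) did not pass. The difference between these lists and the members was not tested.

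Choroid plexus markers, genes of the epithelium that makes cerebrospinal fluid, summed to 31.8 and 31.6 CPM in control libraries 1 and 2, to 2.05 CPM in control library 3 and to 2.03 to 6.85 CPM after VNS. The 2 sums rested on different genes. Ttr, the defining marker, had 20.2 CPM in control library 1, with a range of 0.35 to 3.08 CPM over the remaining 6. In control library 2 Ttr was at 0.43 CPM, and most of the sum was Otx2, at 25.3 CPM (3.54 CPM in control library 1). Kl had 4.28 and 2.65 CPM in control libraries 1 and 2, 0.84 CPM or less elsewhere and 0 in VNS library 3. Of 6 choroid plexus records 5 had values below 0. Astrocyte markers summed to 1190 to 1728 CPM in controls, and to 1566 to 2596 CPM after VNS, with 2 of 5 tested records below 0. Aqp4 had no counts in any of its 5 records, nor Slc1a3 in any of its 4. Reads in exons shared by records were assigned to none, so no level can be given for these genes. Gfap, the astrocyte filament gene, ranged from 478.2 to 1018 CPM in controls and from 754.6 to 1996 CPM after VNS. Microglia markers summed to 177.3 to 234.8 CPM in controls and to 187.0 to 224.4 CPM after VNS, with 2 of 7 records below 0, and the microglial receptor genes Cx3cr1 (log2 fold change 0.12, SE 0.16) and P2ry12 (0.075, SE 0.22) did not pass. The part of these cells in the member values was not tested.

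**Figure D4:**
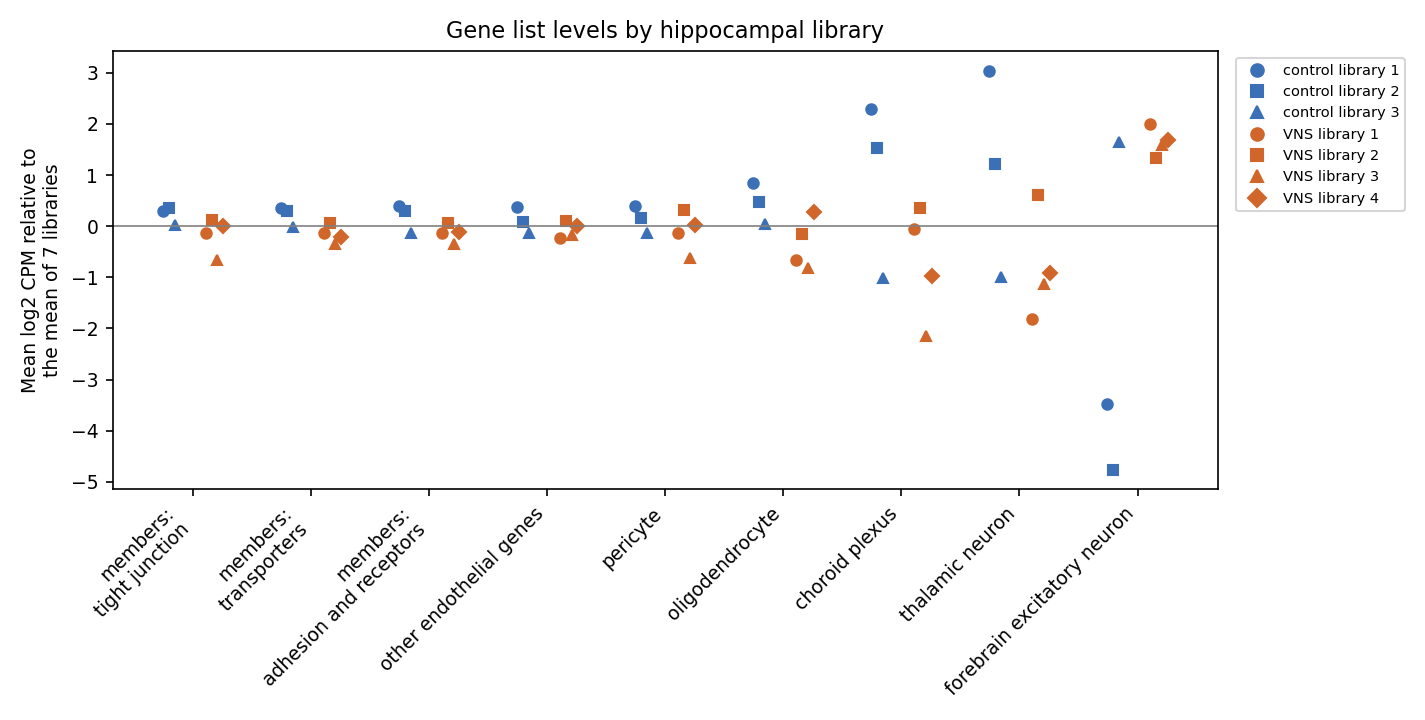
Mean log2 CPM of each gene list in each hippocampal library, relative to the mean of the 7 libraries, with controls in blue and VNS in orange. The member transporters run from -0.35 to 0.36, while forebrain excitatory neuron markers run from -4.76 to 1.99 and separate control libraries 1 and 2 from the rest.

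In the cortex the members were near the limit of detection. Libraries held 329130 to 435296 counts, of which 37 to 101 fell in the 11 member records. A count of 10 or more was reached in 16 of 88 values, by 9 records of 8 genes, and not by Ocln or Pecam1. Per the file headers these reads were counted with strand option 1, which assigns reads on the strand of the transcript. The first read of the stranded TruSeq kit named in the labels comes, as is generally known of that kit, from the opposite strand. A cortex value is therefore not a measure of how strongly a gene was expressed, and no level is compared between tissues.

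Slc2a1 was the member tested in the cortex. Its counts were 13, 28, 8 and 9 in control libraries 1 to 4 and 5, 11, 8 and 11 in VNS libraries 1 to 4. The groups overlapped. The control mean was 40.1 ± 19.04 CPM (SD, n = 4), the VNS mean 25.0 ± 7.94 CPM (SD, n = 4), and the log2 fold change -0.69 (SE 0.49, edgeR adjusted p = 0.9998). Over all 3884 records tested in the cortex, 0.0257% passed, and 2.39% had an unadjusted p under 0.05 with edgeR. Slc2a1 was not among either. With no filter, all 11 members could be tested, and 0 had an unadjusted p under 0.05, against 3.29% of all records in that fit.

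The remaining members with a count of 10 are given as counts only. Tek had 3, 17, 12 and 16 counts in controls and 5, 9, 7 and 7 after VNS, where 1 control lay below every VNS library. Cldn5 had 0, 3, 4 and 13 counts in controls and 2, 7, 12 and 5 after VNS. Its 0 in control library 1 allows up to 9.11 CPM, from 3 counts of its total. Slco1c1 had 7, 7, 1 and 12 counts in controls and 7, 2, 14 and 6 after VNS. These counts overlapped between groups for both genes.

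Slc16a1 had 2, 18, 2 and 2 counts in controls and 3, 7, 8 and 2 after VNS, so a single control library held most of the control counts. Slco1a4 had 1 to 10 counts in controls and 3 to 8 after VNS. Abcb1a had 1 to 11 and 2 to 3 counts. The full-length Flt1 record had 2 to 8 and 2 to 10 counts, and the short one 1 to 8 and 0 to 12. These records did not pass the filter on low counts in the main fit. Whether a difference between groups could be detected at such counts was not tested.

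**Figure D5:**
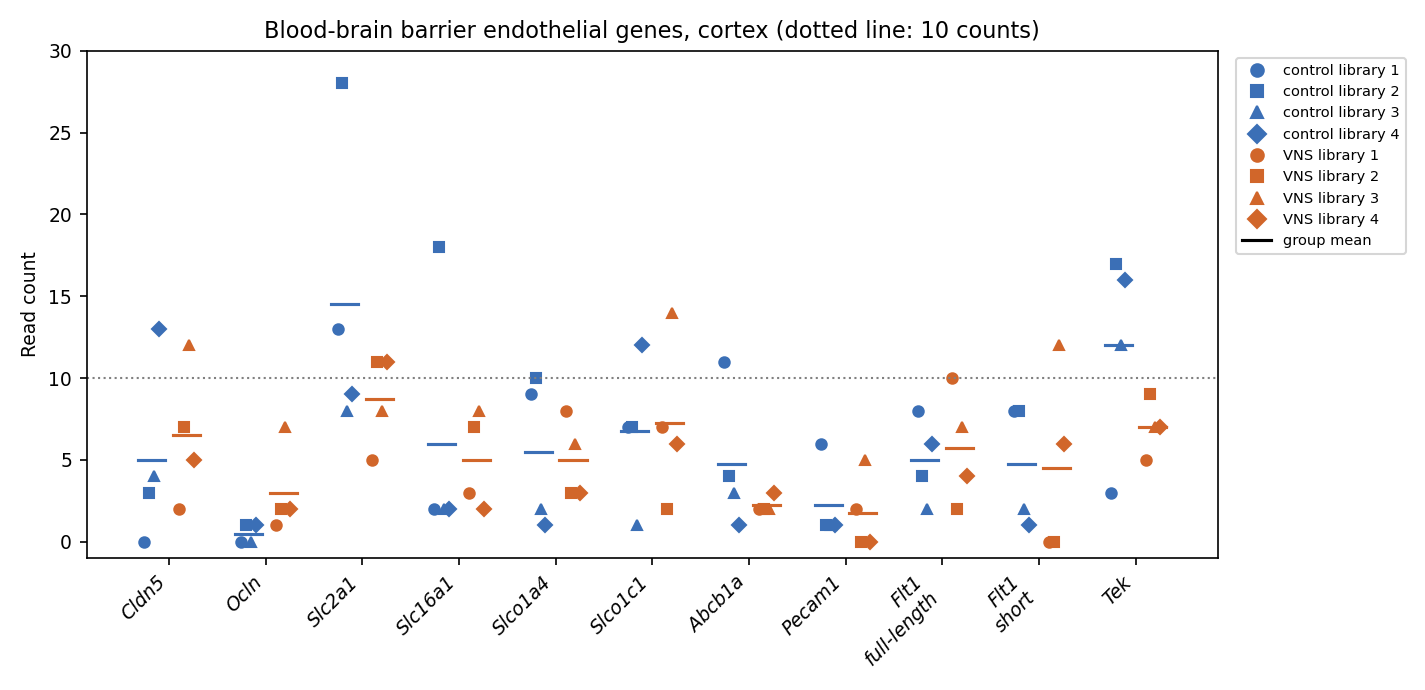
Read counts of the 11 member records in each cortex library (linear axis), with controls in blue, VNS in orange, a bar at the group mean and a dotted line at 10 counts. Most values lie under 10 and the highest, 28, is Slc2a1 in control library 2.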

How the data were processed

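Counts came from 15 rat libraries. Cortex libraries were polyA-selected and hippocampal libraries ribosome-depleted, per the labels. The deposited values are raw read counts per RefSeq transcript record (rn5), made by the authors with featureCounts 1.4.6-p2, with strand option 1 in the cortex and no strand option in the hippocampus, per the file headers. FastQC 0.10.1, Trimmomatic, Bowtie2, SAMtools 0.1.19, Subread and edgeR are named in the submitters' processing notes. For the aligner, its settings were not given in the sources used here. Record lengths are the deposited exonic lengths in bases, per the file headers. Symbols for 17339 of 18278 records came from a RefSeq table of GRCr8, used for names and promoters only.

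Each tissue was fitted apart in R 4.3.3 with edgeR 4.0.16: filterByExpr (minimum count 10, minimum total 15), TMM scaling, the quasi-likelihood test (two-sided) and Benjamini-Hochberg adjustment over all records, threshold 0.05. The SE is the absolute log2 fold change divided by the square root of F. CPM uses TMM-scaled library sizes. List levels use a prior count of 2. The edgeR test was checked on counts simulated with its own fitted dispersions. Libraries of a group shared the same mean per record there, so differences in tissue content between control libraries were not imitated. Alternatives were upper-quartile scaling or the size factors of DESeq2, a filter of 1 CPM in 3 libraries or none, DESeq2 1.42.0, limma-voom (limma 3.58.1), leaving out ribosomal and 7SL RNA records, summing counts per symbol and leaving out libraries. Libraries are numbered within groups in accession order. Columns left unused numbered 0, and 1 cortex column name differs from its sample's description by a letter.

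Named genes were the members and, from each list on the vessel wall, the 2 records with the smallest p and the 2 highest per kilobase. From lists of other cells the first 2 genes were named. Some genes that this rule names are not reported here. Angpt1, Vegfa, Dcn and Hbb were named after their values were seen. The members and lists were chosen with earlier results of these data known.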

Additional observations from a re-analysis of the deposited data

Results flagged for a closer look

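Of 29 groups of 4 libraries examined among the member records, 2 held a library far from the other 3, and chance flags about 1 in 20 groups. Abcb1a had 47.9 CPM in hippocampal VNS library 2, against 29.6 to 31.5 CPM in the remaining VNS libraries. Slc16a1 was at 42.5 CPM, or 18 counts, in cortex control library 2, against 5.83 to 6.55 CPM, or 2 counts each, in the remaining controls.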

How the results depend on the processing

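In the hippocampus 168 of 174 single-record values over 16 alternatives kept their direction and their side of the threshold. That count does not measure how stable the sizes were, since 0 of 12728 records passed in the main fit. Slc16a1, for example, ran from -1.21 to -0.26 over these alternatives. The members passing after adjustment numbered 0 to 1 when each library was left out in turn, and the 1 was Slc16a1 without control library 3. At an unadjusted p under 0.05 there were 2 to 5 members, all lower after VNS, with 5 without VNS library 2. Of all records, 3.18% to 12.9% were lower at that p in these fits, and 7.04% without VNS library 2. Without control libraries 1 and 2 that count was 0, the members' median was -0.037, and Abcb1a (0.00057), full-length Flt1 (0.094), Pecam1 (0.044) and Tek (0.16) reversed. Slco1c1 reversed without control library 2, with values from -0.073 to 0.0064 over the libraries left out. The cause was not tested. Flt1 summed over both records had a log2 fold change of -0.37 (SE 0.19, edgeR unadjusted p = 0.083). In the cortex the median over tested members was -0.087 with no filter and -0.085 with the 1 CPM filter, where 11 records rather than 1 were tested. Without cortex control library 2 no member passed the filter, so no value could be had. No paired analysis was possible because the labels give no replicate numbers. Low counts limit the cortex, with 28 at most for any member, and hippocampal VNS library 3. The parts of depth and of the strand option in the low cortex counts were not tested.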

Other observations

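Red blood cell genes, which mark blood left in the vessels, had lower values after VNS in 6 of 6 records of the hippocampus (median log2 fold change -0.59), and 0 passed after adjustment. Their summed level was 385.5 CPM in control library 1, 122.0 and 147.9 CPM in control libraries 2 and 3, and 147.8, 129.0, 210.0 and 84.8 CPM in VNS libraries 1 to 4. Hbb, a beta globin gene, had 127.7 CPM in control library 1, and the remaining 6 libraries ranged from 20.5 to 50.1 CPM. Hba-a1, an alpha globin gene, had 157.5 CPM in control library 1 and 123.6 CPM in VNS library 3, and the remaining 5 ranged from 36.9 to 61.3 CPM. Hba-a2, a near-identical copy whose separate count is uncertain, had 71.4 and 56.3 CPM in the same 2 libraries.

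Fibroblast and meningeal markers had 4 of 6 records above 0 after VNS and 2 below (median 0.038). Dcn, a proteoglycan gene of perivascular fibroblasts, was at 4.62, 6.52 and 8.84 CPM in controls and at 11.3, 13.9, 17.3 and 9.32 CPM after VNS (log2 fold change 0.94, SE 0.28, unadjusted p = 0.011, edgeR adjusted p = 0.40). All 4 VNS libraries exceeded all 3 controls, which held for 4.67% of all records tested. The direction was opposite to that of Slc16a1, Ocln and the short Flt1 record. Col1a1, a fibrillar collagen gene, ranged from 10.4 to 14.6 CPM in controls and from 8.10 to 18.4 CPM after VNS, and Col1a2 had a log2 fold change of -0.37 (SE 0.38).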
